A study of Rattus norvegicus with 6 samples.

Results

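Complement, blood clotting and fibrinolysis genes were followed in whole lungs of wild-type rats and of rats labelled as Ahr knockouts. The members were picked by gene name, with earlier results of these data known: 39 symbols were looked up in the first column of the deposited table of 19828 entries. Of these, 37 had an entry of their own, and C4a and C4b shared 1 joint entry, so the 39 genes gave 38 measured entries. The study compared total lung of Sprague-Dawley rats by bulk RNA-seq, with 3 libraries from wild-type animals (WT) and 3 from Ahr knockouts (Ahr-KO). Both groups carried the Sugen-Hypoxia (SuHx) treatment and were taken at day 56, so every library came from a treated lung and none from an untreated one. The column names of all libraries also hold the letters NO, which the sample titles do not explain. Sugen blocks VEGF receptors, and given with low oxygen it makes a rat model of pulmonary arterial hypertension. Ahr encodes the aryl hydrocarbon receptor, a transcription factor switched on by small ligands. The sources used here do not give the kind of Ahr edit or the age and sex of the rats.

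Complement is a chain of plasma proteins that mark and lyse targets. C1q, built of the C1qa, C1qb and C1qc chains, binds a target and activates the proteases C1r and C1s, which cut C4 and C2. Their products cut C3 and then C5, and C6 to C9 build the membrane pore, while factors B, D and properdin drive the alternative route. Clotting runs from tissue factor (F3) through factors VII, X and V to thrombin (F2), and is held back by thrombomodulin, the protein C receptor and serpin inhibitors. Fibrin is removed by plasmin, which the activators Plat and Plau release from plasminogen. The liver makes most of these proteins for the blood, whereas lung macrophages, fibroblasts, epithelium and endothelium make some of them locally.

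The deposited values were normalised, estimated reads per gene. They summed to 17.8 to 18 M (mega) in WT and 18.9 to 19.3 M in Ahr-KO. The most frequent low value above 0 in a library was taken as 1 read, or 1 step. It put the depth at 12.9 to 21.9 M reads in WT and 14.2 to 23.6 M reads in Ahr-KO. Libraries are named 0, 1 and 2 as in the table. Cyp1a1, the best known AHR target, had WT values of 27085, 23512 and 37694 against Ahr-KO values of 10.5, 0.826 and 1.36, and Ahr itself 2940.0, 2860.4 and 3395 against 2399, 3923 and 3575, a gene-level value that does not check the edit. The surfactant gene Sftpc, which marks lung tissue, had means of 257583 and 321737. Of 7 hepatocyte markers, Alb had WT values of 42, 0.821 and 2.8 against Ahr-KO values of 0.806, 0 and 1.36. Its WT mean of 15.2 thus came mostly from library 0. Ttr had means of 2.68 and 0.544, and Apob of 1 and 0.551, both also highest in WT library 0. The list summed to 1933 to 2451 in WT and 3098 to 4188 in Ahr-KO, nearly all of it from Tf and Serpina1, which other tissues also make and of which Serpina1 was called higher (adjusted p = 0.00057). Values are normalised values of each library or means ± SD (n = 3). Log2 differences are Ahr-KO minus WT on the log2(value + 1) scale, ± SE, and folds are these differences taken out of the log. A call means a Benjamini-Hochberg adjusted p under 0.05 over 15386 tested genes in limma-trend. Values are not divided by gene length, so levels are not compared between genes.

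Most of the calls were falls in complement genes, the clotting factors gave no call, and the plasminogen activator Plau rose. All 38 entries passed the filter on low values and were tested. Of these, 12 were called, or 31.6%, against 10.8% of all tested genes: 11 were called lower in Ahr-KO, where 6.26% of all tested genes were, and 1 was called higher, against 4.5% of all tested genes. Those 11 were C1qa, C1qb, C1qc, C1r, C1s, the joint C4 entry, C7, Cfp, Serping1, Serpine2 and Serpinf1, and the 1 was Plau. Complement took 9 of the 11, among its 21 entries, and the other 17 entries took the rest. The log2 difference was below 0 in 31 entries and above 0 in 7, with a median of -0.65, where the median of all tested genes was 0.01. In 16 entries every Ahr-KO value lay below every WT value, and in 3 every Ahr-KO value lay above. These 19 separated entries compare with 34.3% of all tested genes, 17.4% downward and 17% upward. Leaving out Ahr-KO library 1 or 2 lowered the number called lower to 7 and 6, and the number called higher to 0. With equal library totals 12 entries were called lower and 1 higher. Over the whole table that scaling turned 963 lower and 692 higher calls into 1314 and 448.

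**Figure D1:**
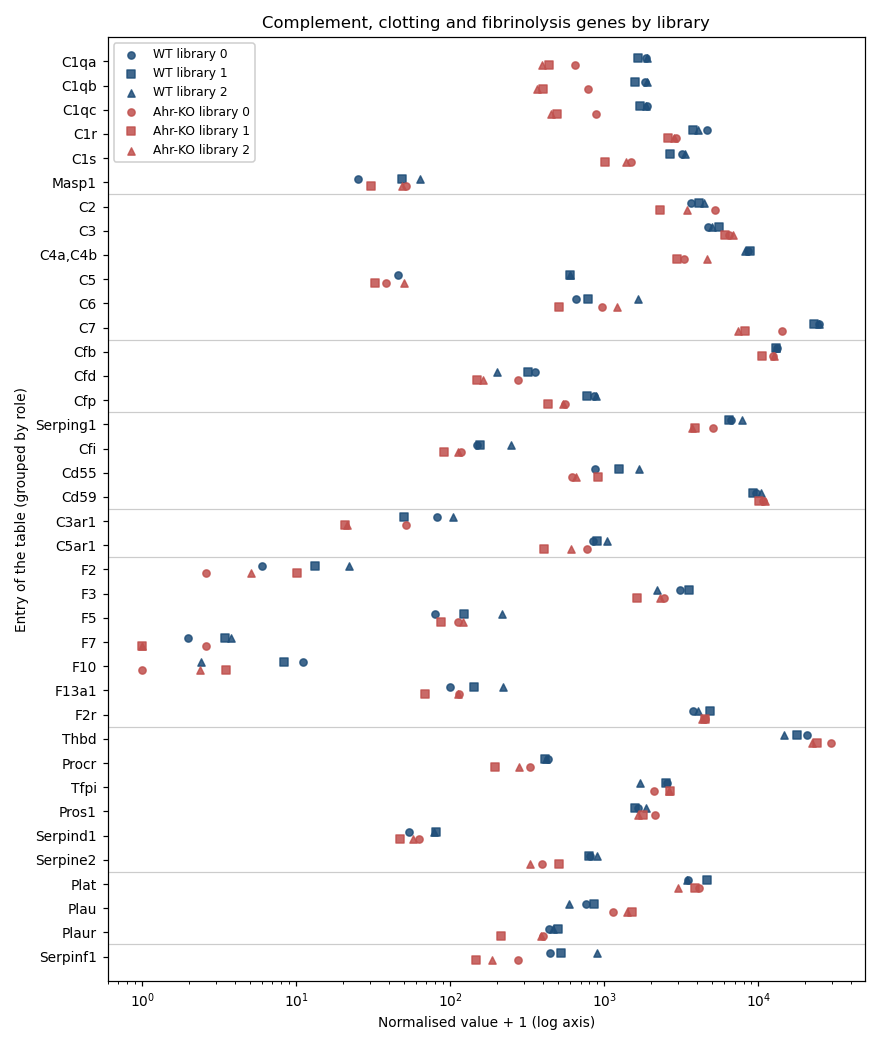
Normalised value + 1 (log axis) of each of the 38 entries in the 3 WT (blue) and 3 Ahr-KO (red) libraries, with horizontal lines between the roles. The C1q chains, C1s, the C4 entry and C7 show the red points to the left of the blue ones, while the clotting factors overlap.

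**Figure D2:**
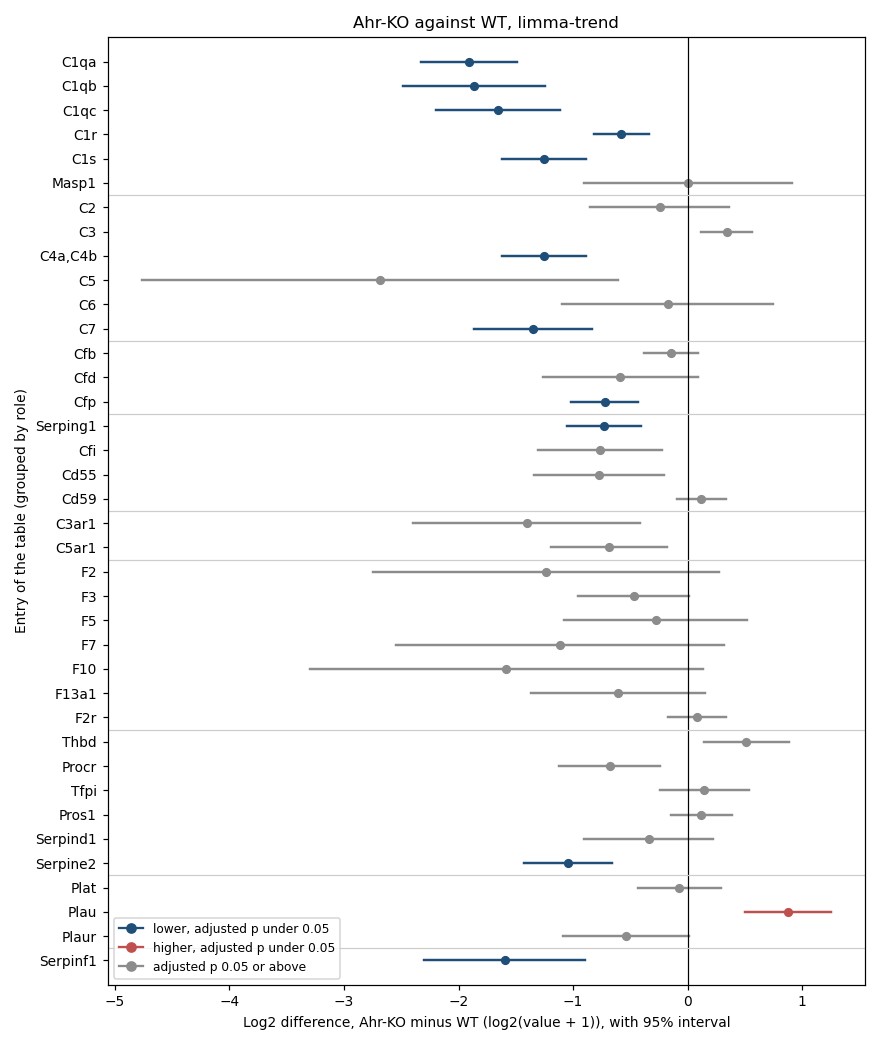
Log2 difference (Ahr-KO minus WT, log2(value + 1) scale) of each entry with its 95% interval from limma-trend. Blue marks the 11 entries called lower, red the 1 called higher (Plau) and grey the 26 not called.

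C1q, the recognition unit, fell in all 3 of its chains, to between 27.2% and 33.2% of the WT mean. C1qa had values of 1849, 1652 and 1898 in WT and of 645, 433 and 390.1 in Ahr-KO, in the order of libraries 0, 1 and 2 as throughout. C1qb stood at 1837, 1579 and 1893 against 785, 396 and 364. For C1qc the values were 1897, 1706 and 1858 against 880.1, 489 and 446. The WT libraries lay close together for each chain, the Ahr-KO libraries lay far below them with no overlap, and library 0 was the highest of the Ahr-KO group each time. The log2 differences were -1.91 ± 0.18 for C1qa (adjusted p = 0.0031), -1.86 ± 0.27 for C1qb (adjusted p = 0.0086) and -1.65 ± 0.23 for C1qc (adjusted p = 0.0081), or 3.76-fold, 3.64-fold and 3.15-fold lower. All 3 calls held in each of the 15 alternative fits. The ratio of C1qb to C1qa within a library was 0.982 ± 0.0226 in WT and 1.02 ± 0.17 in Ahr-KO (n = 3 each), and that of C1qc to C1qa was 1.01 ± 0.0295 and 1.21 ± 0.132. In the RefSeq gene table (GRCr8) the 3 genes stand side by side, with no other protein-coding gene between them.

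Macrophages are the main source of C1q. Of the 12 macrophage and monocyte markers listed, Marco was at 0 in all 6 libraries and 11 were tested. In limma-trend 1 was called lower (9.09%, against 6.26% of all tested genes) and 0 higher (against 4.5%). An unadjusted p under 0.05 was found in 5, with Cd68, Adgre1, Itgam and Aif1 below 0 and Csf1r above 0. The log2 difference was below 0 in 9 and above 0 in 2 (median -0.45). In 4 every Ahr-KO value lay below every WT value and in 1 above, against 17.4% and 17% of all tested genes. The 1 called lower was Aif1, a calcium-binding protein of macrophages, at 884, 667 and 737 against 398, 309 and 338 (adjusted p = 0.0062). Csf1r, the receptor for the growth factor CSF1, stood at 5022, 4908 and 5036 against 5505, 5590.0 and 6089.6, with all Ahr-KO values above WT (adjusted p = 0.16). Cd68, a lysosomal protein, stood at 1379, 1607 and 1567 against 1265, 567 and 832 (adjusted p = 0.073). Adgre1 had means of 217 and 124 (adjusted p = 0.081) and Itgam of 291 and 147 (adjusted p = 0.084). In Cd68, Adgre1 and Itgam every Ahr-KO value lay below every WT value, without a call. The summed level of the list was 12630 to 16130 in WT and 9918 to 16240 in Ahr-KO, and it was highest in Ahr-KO library 0, which also had the most C1q of its group. In that library the scavenger receptor Cd163 stood at 321, against 50.4 and 65.5 in Ahr-KO libraries 1 and 2. The ratio of C1qa to Csf1r, 1 of the 2 markers above 0, was 0.361 ± 0.0213 in WT and 0.0862 ± 0.0276 in Ahr-KO. That of C1qa to Cd68 was 1.19 ± 0.158 and 0.581 ± 0.16, and that of C1qa to Aif1 was 2.38 ± 0.255 and 1.39 ± 0.233. The groups did not overlap in any of these ratios, and the size of the drop differed with the marker. These ratios were chosen after the values were seen. In bulk tissue, fewer cells of a type and less RNA per cell cannot be told apart.

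**Figure D3:**
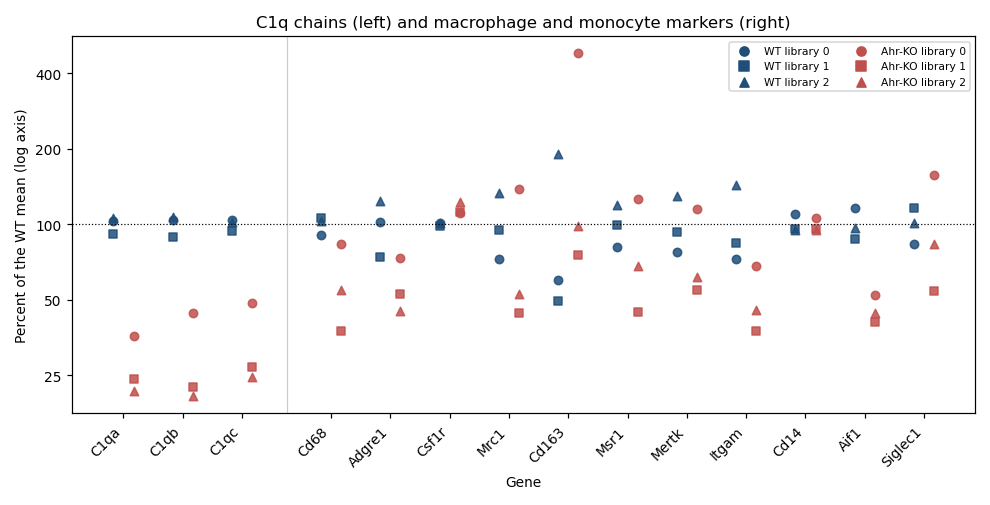
Each library as a percent of the WT mean of that gene (log axis), for the C1q chains and the 11 macrophage and monocyte markers above 0, with WT in blue and Ahr-KO in red. The C1q chains fall together in the red points. The red points of Csf1r lie just above the WT mean, and those of Cd68, Adgre1, Itgam and Aif1 lie below it. Cd163 spreads widely within both groups.

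Upstream sequence was available for 27 of the 39 genes (RefSeq, GRCr8, 250 bases before to 50 after the gene start). Among the genes called lower, C1qc, C1s, C7 and Serping1 had none, so the third C1q chain was not searched. The windows of C1qa and C1qb are shown because the chains fell together, and those of Cfp, Serpinf1 and Plau because they are the called members that hold the core letters bound by AHR with its partner ARNT. Each is given 5′ to 3′ on the strand of its gene, with capitals for matches, on either strand, to GCGTG (the AHR core), GAGGAA (like the myeloid factor PU.1), TGANTCA (AP-1), TTCNNNGAA (a STAT site) or the ISRE core of interferon response elements, which is 2 runs of GAAA with any 2 bases between them.
C1qa, chr5:154419884-154420183, minus strand: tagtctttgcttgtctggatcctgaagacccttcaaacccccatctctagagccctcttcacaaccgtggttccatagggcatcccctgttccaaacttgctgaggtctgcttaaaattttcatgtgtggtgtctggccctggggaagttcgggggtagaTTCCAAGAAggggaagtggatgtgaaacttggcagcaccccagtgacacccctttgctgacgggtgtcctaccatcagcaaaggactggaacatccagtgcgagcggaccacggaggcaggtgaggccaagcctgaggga
C1qb, chr5:154407778-154408077, minus strand: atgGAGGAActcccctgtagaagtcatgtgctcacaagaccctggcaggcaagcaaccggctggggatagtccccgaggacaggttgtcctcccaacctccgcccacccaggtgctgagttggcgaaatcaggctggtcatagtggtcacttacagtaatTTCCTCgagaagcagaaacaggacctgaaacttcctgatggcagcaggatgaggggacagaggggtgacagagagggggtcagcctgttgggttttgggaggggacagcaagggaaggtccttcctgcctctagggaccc
Cfp, chrX:3715301-3715600, plus strand: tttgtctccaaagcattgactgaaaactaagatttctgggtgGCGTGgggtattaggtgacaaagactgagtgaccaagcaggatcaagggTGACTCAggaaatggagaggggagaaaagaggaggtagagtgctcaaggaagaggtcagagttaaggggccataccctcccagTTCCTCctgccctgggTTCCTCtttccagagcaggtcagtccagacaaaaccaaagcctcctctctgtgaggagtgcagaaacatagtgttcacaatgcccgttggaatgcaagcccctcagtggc
Serpinf1, chr10:60760849-60761148, minus strand: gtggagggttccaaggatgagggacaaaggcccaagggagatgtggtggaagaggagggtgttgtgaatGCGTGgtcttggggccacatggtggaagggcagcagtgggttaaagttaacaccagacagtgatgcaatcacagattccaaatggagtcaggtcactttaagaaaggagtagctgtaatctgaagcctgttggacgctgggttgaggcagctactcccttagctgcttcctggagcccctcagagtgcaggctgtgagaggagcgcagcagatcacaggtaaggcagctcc
Plau, chr15:3511938-3512237, minus strand: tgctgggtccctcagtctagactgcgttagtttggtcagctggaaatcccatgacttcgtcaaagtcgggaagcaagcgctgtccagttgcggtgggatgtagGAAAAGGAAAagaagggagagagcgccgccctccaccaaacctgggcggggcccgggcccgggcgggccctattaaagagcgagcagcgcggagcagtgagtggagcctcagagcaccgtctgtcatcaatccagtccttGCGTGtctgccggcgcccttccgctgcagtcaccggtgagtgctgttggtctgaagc
The windows of C1qa and C1qb held no GCGTG. That motif was found in 7 of the 27 member windows and in 2 of the 8 that belong to genes called lower, while 31.1% of 27457 windows of the same length held it. The 8 include separate windows of C4a and C4b, which share 1 joint entry and so 1 call. GAGGAA was found in 9 of 27 and 4 of 8, with C4b but not C4a among them, against 27.5% of all windows. TGANTCA was found in 6 of 27 (7.33% of all windows), TTCNNNGAA in 2 of 27 (8.68%) and the ISRE core in 1 of 27 (3.77%). Overlapping matches were each counted as present. A match describes the letters of the window and is no evidence of binding.

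The proteases that C1q switches on were lower as well, and whether C1s and C1r differed in this was not tested. C1s, which cuts C4 and C2, stood at 3173, 2674 and 3342 in WT and at 1498, 1007 and 1383 in Ahr-KO, 2.38-fold lower (log2 -1.25 ± 0.16, adjusted p = 0.006). C1r, which activates C1s, stood at 4620.4, 3746 and 4076 against 2912, 2569 and 2827, 1.49-fold lower (log2 -0.58 ± 0.10, adjusted p = 0.015). In both genes every Ahr-KO value lay below every WT value. The 2 genes are neighbours on the same chromosome, and the ratio of C1s to C1r within a library was 0.74 ± 0.0703 in WT and 0.465 ± 0.0646 in Ahr-KO without overlap. The C1s call held in all 15 alternative fits. That of C1r was lost without Ahr-KO library 1 or 2 and in limma without the trend (adjusted p 0.0092 to 0.063 over the alternatives). Masp1, a protease of the lectin route, stood at 24, 47.6 and 62.9 against 50.8, 29.8 and 47.7, and the groups overlapped (log2 95% interval -0.91 to 0.91, adjusted p = 1).

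Serping1, the C1 inhibitor that removes C1r and C1s from the complex, was lower too. It stood at 6604, 6445 and 7852 in WT and at 5089, 3853 and 3728 in Ahr-KO, 1.66-fold lower with no overlap (log2 -0.73 ± 0.14, adjusted p = 0.019). Its call was lost without Ahr-KO library 1 or 2 and in limma without the trend (adjusted p 0.011 to 0.081 over the alternatives). Fibroblasts are a known local source of C1r, C1s, C7 and Serping1. Of 8 fibroblast markers tested, 2 were called lower and 0 higher, against 6.26% and 4.5% of all tested genes. In 2 every Ahr-KO value lay below every WT value and in 0 above, against 17.4% and 17% of all tested genes. The summed levels were 19800 to 26040 in WT and 13820 to 17510 in Ahr-KO. The log2 difference was below 0 in 6 and above 0 in 2 (median -0.67). Those called were the collagen chain Col1a1 (means 9507 and 3639, adjusted p = 0.0034) and Pi16 (means 1241 and 541, adjusted p = 0.02). Most of the difference between the summed levels came from Col1a1 alone. Col1a2, Dcn, Lum and Tcf21 were below 0 without a call. The growth factor receptor Pdgfra, present on most lung fibroblasts, was 1 of the 2 above 0, with means of 3778 and 4123 (adjusted p = 0.76). The part of fibroblast or macrophage number in the complement differences was not tested.

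Among the substrates and pore proteins, C4 and C7 fell while C2, C3 and C6 gave no call. The joint entry for C4a and C4b, the copies of the protein that C1s cuts first, stood at 8515, 8799 and 8116 in WT and at 3279, 2946 and 4622 in Ahr-KO, 2.39-fold lower with no overlap (log2 -1.26 ± 0.16, adjusted p = 0.006). Reads of the copies cannot be told apart in it, and its call held in all 15 alternative fits. C7, which anchors the growing pore in the membrane, stood at 24785, 22976 and 24822 against 14106, 8228 and 7386, 2.55-fold lower with no overlap (log2 -1.35 ± 0.22, adjusted p = 0.013). The WT values of C7 were tight, and Ahr-KO library 0 was well above the other Ahr-KO libraries. The C7 call was narrowly lost without Ahr-KO library 1 or 2 (adjusted p 0.0024 to 0.055 over the alternatives). C6, the pore protein that binds next to C7, stood at 656, 785 and 1642 against 957, 508 and 1206, with overlap (adjusted p = 0.81). In the RefSeq gene table C6 and C7 have 1 protein-coding gene between them.

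C3, the central protein of all routes, had higher values in Ahr-KO without passing the test. It stood at 4701, 5559.8 and 4995 in WT and at 6424, 6070.2 and 6819 in Ahr-KO, so every Ahr-KO value was above every WT value (log2 0.34 ± 0.10, 95% interval 0.12 to 0.56, adjusted p = 0.061). C2, the partner of C4 in the C3-cutting enzyme, stood at 3672, 4137 and 4448 against 5213, 2280.2 and 3412, where Ahr-KO library 0 exceeded all others and library 1 was the lowest (adjusted p = 0.59). C5, the source of the anaphylatoxin C5a and the start of the pore, was split within the WT group. Its values were 45, 594 and 599 in WT and 37.1, 31.4 and 49.1 in Ahr-KO. WT library 0 lay among the Ahr-KO values, while WT libraries 1 and 2 were more than 10 times as high. With all libraries C5 gave no call (log2 -2.68 ± 0.90, adjusted p = 0.098), and without WT library 0 the log2 difference was -3.92 (adjusted p = 0.00227; 0.0023 to 0.23 over the alternatives).

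In the alternative route, properdin fell and factors B and D gave no call. Cfp encodes properdin, which holds the C3-cutting enzyme together. It stood at 856, 767 and 876 in WT and at 551, 429.7 and 537 in Ahr-KO, 1.65-fold lower with no overlap (log2 -0.72 ± 0.13, adjusted p = 0.015), and its call was lost without WT library 0 or Ahr-KO library 2 (adjusted p 0.0087 to 0.053 over the alternatives). Cfb, factor B, stood at 13204, 12930.5 and 13079 against 12367, 10532 and 12693. The Cfb groups were separate, yet the difference was small (log2 95% interval -0.38 to 0.09, adjusted p = 0.4). Cfd, the protease that cuts factor B, stood at 356, 318 and 199 against 274, 148 and 162 with overlap (adjusted p = 0.24).

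The remaining complement inhibitors and the anaphylatoxin receptors gave no call, most with values below WT. Cfi, the protease that destroys C3b and C4b, stood at 149, 155 and 248 against 116, 90.1 and 110.5 with no overlap (adjusted p = 0.077). Cd55, which takes apart the C3-cutting enzymes on cell surfaces, stood at 868, 1237 and 1686 against 615, 902 and 653, and the groups overlapped in 1 value of each (adjusted p = 0.085). Without WT library 0 its adjusted p was 0.042 (0.042 to 0.24 over the alternatives). Cd59, which blocks the pore, had the smallest log2 difference of the 4 inhibitors, with means of 9729 ± 632 and 10568 ± 489.7 (log2 95% interval -0.09 to 0.33, adjusted p = 0.44). The anaphylatoxin receptors sit mainly on myeloid cells and let them sense complement activation. C3ar1, the receptor for C3a, stood at 81, 49.3 and 104 in WT and at 50.8, 19.8 and 20.5 in Ahr-KO, with overlap (adjusted p = 0.077). C5ar1, the receptor for C5a on myeloid cells, stood at 849, 895 and 1041 against 765, 403 and 609.8 with no overlap (adjusted p = 0.086). In both receptors Ahr-KO library 0 was the highest of its group, and without it the adjusted p was 0.0266 for C3ar1 and 0.0349 for C5ar1 (over the alternatives 0.027 to 0.23 and 0.035 to 0.19).

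None of the 7 clotting entries passed the test in limma-trend, where 10.8% of all tested genes did. In all 7 the groups overlapped, while 34.3% of all tested genes had separate groups. The unadjusted p was under 0.05 in 0 of them. In every alternative fit that these entries passed into, limma-voom included, 0 were called. The log2 difference was below 0 in 6 of the 7 and above 0 in 1 (median -0.61). Tissue factor, F3, which starts clotting, stood at 3105, 3557 and 2196 in WT and at 2439, 1622 and 2305 in Ahr-KO (adjusted p = 0.19). The thrombin receptor F2r had means of 4208 ± 573 and 4432 ± 119, with a log2 95% interval of -0.17 to 0.33. F13a1, the subunit that crosslinks fibrin, had means of 153 ± 61.3 and 97.3 ± 25.6 (adjusted p = 0.27). Factor V, F5, had means of 138 ± 69 and 106 ± 17.7 (adjusted p = 0.65). The liver-made factors had low values, on a scale where 1 read corresponded to 0.806 to 1.4. Thrombin, F2, stood at 5, 12.3 and 21 against 1.61, 9.09 and 4.09. Factor X, F10, stood at 9.996, 7.39 and 1.4 against 0, 2.48 and 1.36, and factor VII, F7, at 1, 2.46 and 2.8 against 1.61, 0 and 0. None of the 3 was called, and their log2 95% intervals were wide, at -2.74 to 0.27 for F2, -3.30 to 0.13 for F10 and -2.54 to 0.32 for F7.

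Among the genes that restrain clotting, Serpine2 fell, and the endothelial receptors Thbd and Procr gave no call. Serpine2, protease nexin-1, inhibits thrombin and the plasminogen activators. It stood at 806, 795 and 899 in WT and at 393, 509 and 326 in Ahr-KO, 2.06-fold lower with no overlap (log2 -1.05 ± 0.17, adjusted p = 0.011), and its call held in all 15 alternative fits. Thbd, thrombomodulin, which turns thrombin towards protein C, stood at 20573, 17809 and 14622 against 29427, 23899 and 22149.7, so every Ahr-KO value was above WT (log2 0.51 ± 0.16, adjusted p = 0.084). It passed the test in 1 of the 15 alternative fits (adjusted p 0.049 to 0.18 over the alternatives). Procr, the receptor that presents protein C to this complex, stood at 429, 411 and 414 against 328, 193 and 277, so every Ahr-KO value was below WT (log2 -0.68 ± 0.19, adjusted p = 0.061). Procr was called lower with equal library totals, in limma-voom and without Ahr-KO library 0 (adjusted p 0.034 to 0.14 over the alternatives). The 8 endothelial markers beside them gave 2 calls higher, Pecam1 and Tek, and 1 lower, Emcn, against 4.5% and 6.26% of all tested genes. The log2 difference was above 0 in 6 and below 0 in 2 (median 0.25). In 4 every Ahr-KO value lay above every WT value and in 1 below, against 17% and 17.4% of all tested genes. Sums of the 8 were 66690 to 67350 in WT and 77250 to 86260 in Ahr-KO. The part of these markers in the Thbd and Procr values was not tested.

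Tfpi, Pros1 and Serpind1 overlapped between the groups. Tfpi, the inhibitor of tissue factor, had means of 2246 ± 465 and 2462 ± 309 (log2 95% interval -0.24 to 0.54). Pros1, the protein S cofactor of activated protein C, had means of 1699 ± 138 and 1850.2 ± 237 (-0.15 to 0.38). Serpind1, heparin cofactor II, had means of 69.9 ± 14.7 and 54.5 ± 7.59 (-0.90 to 0.22).

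Fibrinolysis held the single rise, in Plau, the urokinase activator of plasminogen. It stood at 762, 857 and 590.3 in WT and at 1137, 1500.0 and 1394 in Ahr-KO, 1.83-fold higher with no overlap (log2 0.87 ± 0.16, adjusted p = 0.017). The call was lost without Ahr-KO library 1 or 2 and in limma without the trend (adjusted p 0.016 to 0.077 over the alternatives). Plat, the tissue-type activator made by endothelium, stood at 3479.8, 4612 and 3437 against 4092, 3850.4 and 3012 and overlapped (log2 95% interval -0.43 to 0.29, adjusted p = 0.8). Plaur, the cell-surface receptor of urokinase, stood at 438, 501 and 460.2 against 401, 212 and 387, below WT in every Ahr-KO library without passing the test (adjusted p = 0.19). Serpinf1, a serpin that inhibits no protease and is known for restraining vessel growth, stood at 445, 526 and 888 against 275, 145 and 186, 3.03-fold lower with no overlap (log2 -1.60 ± 0.30, adjusted p = 0.018). The Serpinf1 call was lost in the same 3 fits as that of Plau (adjusted p 0.014 to 0.081 over the alternatives).

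**Figure D4:**
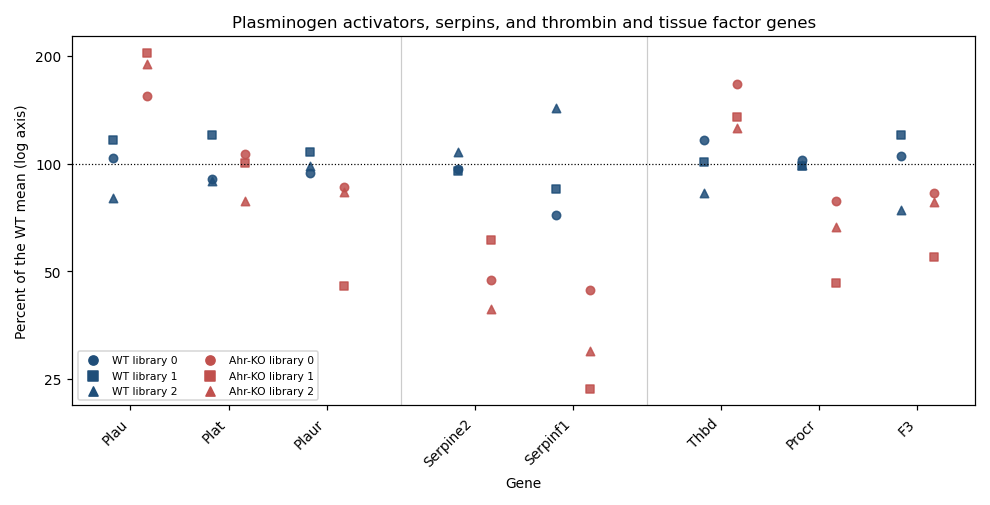
Each library as a percent of the WT mean of that gene (log axis) for the plasminogen activators and their receptor (left), 2 serpins (middle) and Thbd, Procr and F3 (right), with WT in blue and Ahr-KO in red. Plau lies above the WT mean in all red points, Serpine2 and Serpinf1 lie below it, and Plat overlaps.

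A wider list of 60 complement, clotting and fibrinolysis genes outside the 39 gave 48 tested entries, of which 8 were called lower (16.7%, against 6.26% of all tested genes) and 1 higher, with a median log2 of -0.39 against 0.01 over all tested genes. The group of lectin route and collectin genes gave 3 of 7 tested, against 6.26% of all tested genes. The scavenger collectin Colec12 stood at 3455, 2777 and 3072 against 1595, 1336 and 1389 (adjusted p = 0.0034). The ficolins, which bind sugars on microbes, were Fcna (means 227 ± 44.1 and 118 ± 25.6, adjusted p = 0.033) and Fcnb (means 206 ± 72.9 and 82.8 ± 23.3, adjusted p = 0.037). Masp2, a protease of the lectin route, was not called, with every Ahr-KO value above WT (means 123 ± 24.3 and 182 ± 15, adjusted p = 0.098). Among complement receptors, 4 of 8 were called lower, against 6.26% of all tested genes, and 7 of 8 had every Ahr-KO value below every WT value, against 17.4%. Cd93, a surface protein of endothelium first described as a C1q receptor, stood at 9011, 10516 and 12387 against 6248, 6354 and 5356 (adjusted p = 0.012). Itgax, a subunit of the receptor for C3 fragments, had means of 1039.6 ± 255 and 491 ± 155 (adjusted p = 0.034). Cr2, the C3d receptor of B cells, had means of 105 ± 26.2 and 30.6 ± 21.8 (adjusted p = 0.035). C1qbp, named for binding C1q but chiefly a mitochondrial protein, had means of 1032 ± 75.9 and 732 ± 63 (adjusted p = 0.027). The regulator C4bpa had means of 1059.9 ± 138 and 732 ± 105 (adjusted p = 0.049). The 1 gene called higher was F8, clotting factor VIII, with means of 2003 ± 63.4 and 2674 ± 324 (adjusted p = 0.043), and its call was lost whichever library was left out and with equal library totals. Of these 9 calls, that of Colec12 held in every alternative. Cd93 lost its call in 1 fit, without Ahr-KO library 2, and the other 7 genes in at least 5 fits each. The macrophage complement receptor Vsig4 was not called (adjusted p = 0.069): it stood at 771, 69.8 and 122 in WT, where library 0 was far above the others, and at 39.5, 30.6 and 19.1 in Ahr-KO. The von Willebrand factor gene Vwf, an endothelial product that binds platelets, was not called either, with means of 23875 ± 453 and 22587 ± 2153 (log2 95% interval -0.34 to 0.17).

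The 38 entries did not spread evenly over the libraries of a group. Ahr-KO library 0 held the highest value of its group in 25 of 38 entries (65.8%), where it did so in 34.1% of all tested genes. Ahr-KO library 1 held the lowest value in 22 entries (57.9%), against 31.9% of all tested genes. In WT, library 2 held the highest value in 22 entries (57.9%, against 40% of all tested genes) and library 0 the lowest in 16 (42.1%, against 31.2%). Ahr-KO library 0 was also the deepest, at about 23.6 M reads, and had the highest summed macrophage, fibroblast and endothelial markers of its group. All 7 T and NK cell markers were called lower, against 6.26% of all tested genes. Their sums were 2995 to 3567 in WT and 1236 to 1708 in Ahr-KO. Platelet markers gave 0 calls among 6 tested (limma-trend, with 2, Pf4 and Gp6, at an unadjusted p under 0.05, and 0 calls in limma-voom), with sums of 514.8 to 767 in WT and 514.9 to 679.3 in Ahr-KO. Red blood cell markers gave 0 calls among 6 tested (limma-trend, with 5 at an unadjusted p under 0.05, and 0 calls in limma-voom). All 6 had a log2 difference below 0 (median -1.19), and their sums were 11070 to 34570 in WT and 5790 to 15240 in Ahr-KO, with overlap. Alveolar type 2 cells are the surfactant makers of the lung, and their 6 markers gave 0 calls (limma-trend, with 3 at an unadjusted p under 0.05, and 1 called higher in limma-voom). In 5 of these 6 every Ahr-KO value was above every WT value, against 17% of all tested genes (median log2 of the 6 0.38). The sums were 480800 to 541900 in WT and 600200 to 698200 in Ahr-KO without overlap. Whether these library and cell type differences had a part in the complement values was not tested.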

How the data were processed

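RNA was taken from total lung, with 1 library per sample. The submitters' processing notes name FastQC and the build rn6, and the aligner, counter, annotation, strandedness and normalisation method were not given in the sources used here. A table was deposited by the authors, with 1 normalised signal value per gene symbol and library. Between 97.4% and 97.9% of values above 0 lay within 0.05 of a whole multiple of 1 step per library, and the rest were fractions, so no count test was used. Columns number libraries 0 to 2 and titles 1 to 3, so columns were assigned to groups only.

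Values were transformed to log2(value + 1), genes reaching a value of 1 in 3 or more libraries were kept, and limma 3.58.1 (R 4.3.3) was fitted with genotype alone and a mean-variance trend. The test was 2-sided, with Benjamini-Hochberg adjustment across the 15386 genes kept. The exact permutation test of 3 against 3 cannot give a p below 0.1. Code was tested on simulated data. The labels do not say whether the samples are separate animals, and p-values reflect only the spread among these samples, possibly a technical one; library pairs differed by more than sampling noise (chi-square per gene at least 15.4). All members are named, and of the wider list those called; further genes were chosen after their values were seen. Members, lists and tests were chosen with earlier results of these data known. Protein sequences are not used here, and 1 gene is not reported here.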

Additional observations from a re-analysis of the deposited data

How the results depend on the processing

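Of the 12 calls among the 38 entries, 6 held in all alternatives (the C1q chains, C1s, the C4 entry and Serpine2), no called value changed sign, and 6 of the 26 entries without a call gained one in at least 1 of the 15 alternative fits. Leaving out 1 library gave 6 to 14 entries called lower and 0 to 1 called higher, 1 to 7 called lower and 0 called higher in the wider list, and 407 to 1834 genes in the whole table against 1655 with all libraries. Limma without the trend gave 0 entries called higher, 2 wider-list genes called lower and 952 calls in all. The library number as a replicate block gave 2 entries called higher (Plau and Thbd), 3 and 0 in the wider list and 899 calls in all. The samples share only this number: same-numbered libraries had correlations of deviations from -0.1 to 0.069, and 2 of 6 libraries correlated best with their own number. Quantile normalisation gave 5 wider-list genes called lower. Equal library totals and limma-voom on step-scaled values each gave 0 wider-list genes called higher. An adjusted p under 0.10 gave 17 and 3 entries, 17 and 3 wider-list genes and 2853 in all, and C3 and Cfi passed at that threshold alone. The cause of these shifts was not tested. Depth gives little precision for F7, at 0 to 2.8 where 1 read corresponds to 0.806 to 1.4.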
